A study of Mus musculus with 11 samples.

Results

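The 10 genes described here make up the hepcidin axis and the iron-handling machinery of the liver: *Hamp*, *Bmp6*, *Hfe*, *Tfr2*, *Id1*, *Smad7*, *Slc40a1*, *Tfrc*, *Fth1* and *Ftl1*. They were taken by gene symbol, by a rule that uses none of their values, from the 36788 gene identifiers measured, and all 10 were among the 12733 genes tested. RNA from digested whole liver was sequenced from 11 wild-type C57BL/6 female mice older than 12 weeks. All the mice had been ovariectomized (OVX) and fed a high-fat diet. One group of 5 mice (replicates 1, 2, 3, 4 and 6) received follicle-stimulating hormone (FSH), and the control group of 6 mice (replicates 1 to 6) received saline. Both groups therefore lacked ovaries, and no mouse with ovaries or on a standard diet was part of the comparison.

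Hepcidin, the product of *Hamp*, is a peptide hormone made by hepatocytes. It binds the iron exporter ferroportin (*Slc40a1*) on gut, macrophage and liver cells and leads to its degradation, so that less iron enters the blood. Hepatocytes raise hepcidin when BMP6 from the sinusoidal endothelium activates SMAD proteins with the help of HFE and transferrin receptor 2, and interleukin-6 raises it through STAT3. Inside cells, iron regulatory proteins bind iron-responsive elements (IREs), short stem-loops in the untranslated regions of mRNAs. An IRE in the 5′ untranslated region blocks translation when iron is low, whereas IREs in the 3′ untranslated region protect the mRNA from decay.

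Mice carry a duplicate of the hepcidin gene, *Hamp2*, and the promoters of both copies are shown because the copies differed in their response below. The 250 bases before the RefSeq start of each gene (GRCm38.p6, minus strand) lie at chr7:30944030-30944279 for *Hamp* and at chr7:30924182-30924431 for *Hamp2*. Capitals mark matches to GGCGCC, the core of the BMP response element, and to TTCNNNGAA, the motif of STAT factors. Both motifs and CACGTG, an E-box, read the same on both strands, and no matches overlapped in these windows.
Hamp: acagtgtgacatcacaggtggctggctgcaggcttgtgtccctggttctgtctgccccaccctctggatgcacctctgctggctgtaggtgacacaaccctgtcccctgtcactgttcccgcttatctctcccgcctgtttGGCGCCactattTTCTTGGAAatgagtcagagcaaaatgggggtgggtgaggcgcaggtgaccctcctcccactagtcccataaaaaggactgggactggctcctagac
Hamp2: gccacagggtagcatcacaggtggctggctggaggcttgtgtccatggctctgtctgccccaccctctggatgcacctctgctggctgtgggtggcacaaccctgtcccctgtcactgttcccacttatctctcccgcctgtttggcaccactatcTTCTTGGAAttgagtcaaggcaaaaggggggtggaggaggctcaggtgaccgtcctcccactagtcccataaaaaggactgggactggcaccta

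The promoters were identical at 91.9% of 247 aligned bases. The *Hamp* promoter held GGCGCC 109 bases before the start and TTCTTGGAA 97 bases before it. The *Hamp2* promoter held TTCTTGGAA 94 bases before its start and no GGCGCC. This *Hamp2* window lies inside the annotated span of the gene (chr7:30922372-30924681), and the bases before that span were not searched. In the alignment, the 6 bases of the core differed by 1 substitution, G4A, with the base of *Hamp* first and positions counted from 1 at the 5′ end of the core. Among 32851 promoter windows of this length, 9.59% held GGCGCC, 7.02% held TTCNNNGAA and 6.02% held CACGTG. Of the 8 genes searched that had a promoter in the table, *Tfrc* also held a GGCGCC, 89 bases before one of its starts, and *Bmp6* held a CACGTG 127 bases before its start.

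The IREs are shown for the genes of storage, export and uptake, *Ftl1*, *Fth1*, *Slc40a1* and *Tfrc*. Only transcripts of these genes were searched, so the sites do not set them apart from the other genes. Each 30-base site was read from GRCm38, with the loop in capitals. The search took a C, 5 bases, the loop (CAGTG and a base) and 5 bases after it. It kept only matches in which all 5 bases of the upper stem paired, with G-T counted as a pair. Further sites that fall short of this rule may exist. The *Ftl1* site (chr7:45459780-45459809, minus strand), the *Fth1* site (chr19:9982730-9982759, plus strand) and the *Slc40a1* site (chr1:45925466-45925495, minus strand) lie in exon 1 within the 5′ untranslated region. The 4 *Tfrc* sites (chr16:32631217-32631246, 32631596-32631625, 32631661-32631690 and 32631708-32631737, plus strand) lie in exon 19 within the 3′ untranslated region.
Ftl1: gtgtcttgcttcaaCAGTGTttgaacggaa
Fth1: gtttcctgcttcaaCAGTGCttgaacggaa
Slc40a1: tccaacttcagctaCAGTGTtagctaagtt
Tfrc site 1: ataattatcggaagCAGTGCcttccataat
Tfrc site 2: cacattatcgggagCAGTGTcttccataat
Tfrc site 3: gtctatatcggagaCAGTGAtctccatatg
Tfrc site 4: gtaattatcgggaaCAGTGTttcccataat

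Expression was measured in CPM, the reads counted on a gene scaled to a library total of 1000000. Between 10801891 and 19909327 reads were counted on genes per liver, with a median of 15482793 in the FSH group and 12593808.5 in the saline group. Levels of different genes were compared as CPM per kb of annotated exon. The highest median belonged to *Hamp* (4580 CPM per kb), followed by *Ftl1* (2841), *Hamp2* (1324), *Fth1* (609) and *Tfr2* (104). *Id1* (15.2), *Slc40a1* (12.9) and *Hfe* (11.5) formed a middle group, and *Smad7* (2.83), *Tfrc* (2.43) and *Bmp6* (0.449) were lowest. The ranges over the 11 livers overlapped between *Hamp* and *Ftl1*, *Ftl1* and *Hamp2*, *Id1* and *Slc40a1*, *Slc40a1* and *Hfe*, and *Smad7* and *Tfrc*. The ranges of the other neighbours in this order did not overlap. The order depends on the lengths, which count all annotated exons of a gene and can exceed the main mRNA. *Hamp2* was divided by 583 bases and *Fth1* by 3469 bases. In CPM without the lengths, *Fth1* was above *Hamp2* in every liver.

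**Figure D1:**
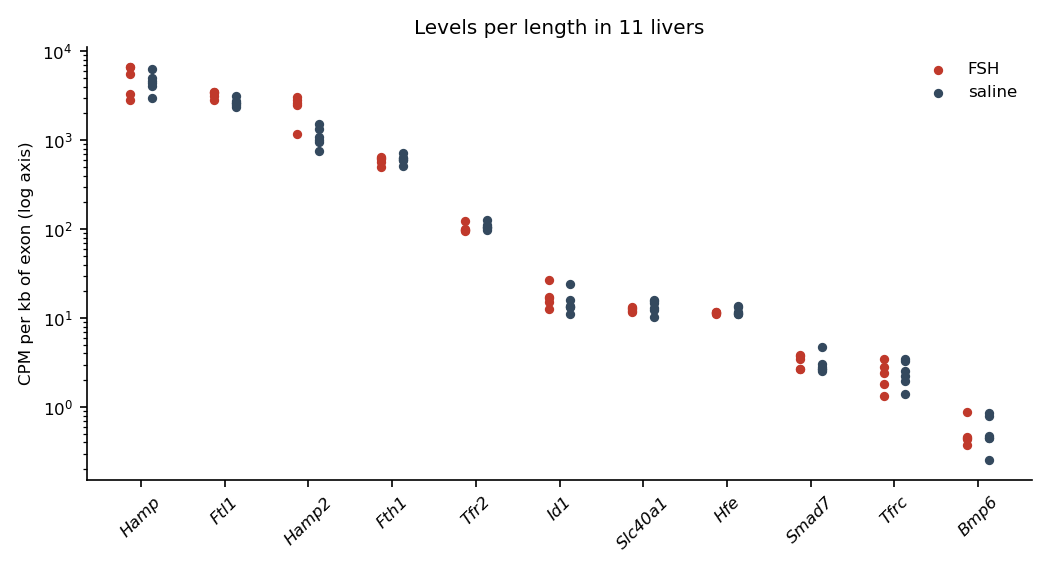
Level of each gene in CPM per kb of annotated exon (vertical log axis), with 1 point per liver, for 5 FSH-treated (red) and 6 saline-treated (dark) livers. The genes span from a median of 4580 for Hamp to 0.449 for Bmp6, and within most genes the points of both groups lie together.

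The 7 hepatocyte markers (*Alb*, *Apoa1* and others) summed to between 98368 and 125870 CPM in the 11 livers. Of the 7, 1 (*Ass1*) was higher with FSH at an adjusted p under 0.05 (6.19% of all genes tested). Summed markers of Kupffer cells, the resident macrophages, lay between 179 and 469 CPM in FSH livers and between 307 and 541 CPM in saline livers, and 0 of the 10 passed the test although all 10 had a negative log2 difference (6 had an unadjusted p under 0.05 with limma, as did 25.1% of all genes tested). Summed stellate cell markers lay between 405 and 498 CPM with FSH and between 483 and 591 CPM with saline (exact permutation test, two-sided, p = 0.00866, adjusted over 6 cell types p = 0.0519). All 8 had a negative log2 difference, and 2 had an unadjusted p under 0.05 with limma, beside 25.1% of all genes. Of the 8, 1 (*Ecm1*) was lower at an adjusted p under 0.05 (4.41% of all genes tested). Sinusoidal endothelial markers summed to 211 to 317 CPM with FSH and 254 to 294 CPM with saline (exact permutation test, two-sided, p = 0.121, adjusted over 6 cell types p = 0.242). Of these 10, 1 (*Lyve1*) was lower at an adjusted p under 0.05 (4.41% of all genes tested). Log2 differences were negative for 8 and positive for 2. An unadjusted p under 0.05 with limma was found for 5, among them *Flt4*, which was higher, beside 25.1% of all genes. Erythroid markers summed to 464 to 790 CPM with FSH and 425 to 1010 CPM with saline. Neutrophil markers summed to at most 2.68 CPM, and *Ly6g*, *Retnlg* and *Elane* had at most 3 reads in every liver. The list of circadian clock genes was written with earlier results of these data known. Of its 17 tested genes, 6 were higher and 5 lower with FSH at an adjusted p under 0.05 with limma (6.19% and 4.41% of all genes tested). The collection hours are not given in the sources used here. The part of cell composition and of the clock in the results below was not tested, and in whole liver fewer cells of a type and less RNA per cell cannot be told apart.

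The FSH and saline livers were compared to ask whether FSH alters the liver transcriptome of OVX mice on a high-fat diet. No difference was called in any of the 10 genes. With limma on log2(CPM + 0.5) and Benjamini-Hochberg adjustment over all genes tested, 0 of 10 had an adjusted p under 0.05, where 10.6% of all 12733 genes did. Likewise 0 of 10 passed both this threshold and an absolute log2 difference over 1 (1.83% of all genes), and the groups overlapped in all 10 (they did not overlap in 6.67% of all genes). An unadjusted p under 0.05 was obtained for 1 of the 10, *Ftl1*, beside 25.1% of all genes tested. edgeR on the recovered reads called 0 of the 10 and voom called 1, again *Ftl1*. The median log2 difference of the 10 genes was -0.05, beside 0.02 for all genes tested, with 4 genes higher and 6 lower in mean, where 6873 of all genes were higher and 5860 lower. The largest difference in absolute size was 0.30, and it also belonged to *Ftl1*.

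**Figure D2:**
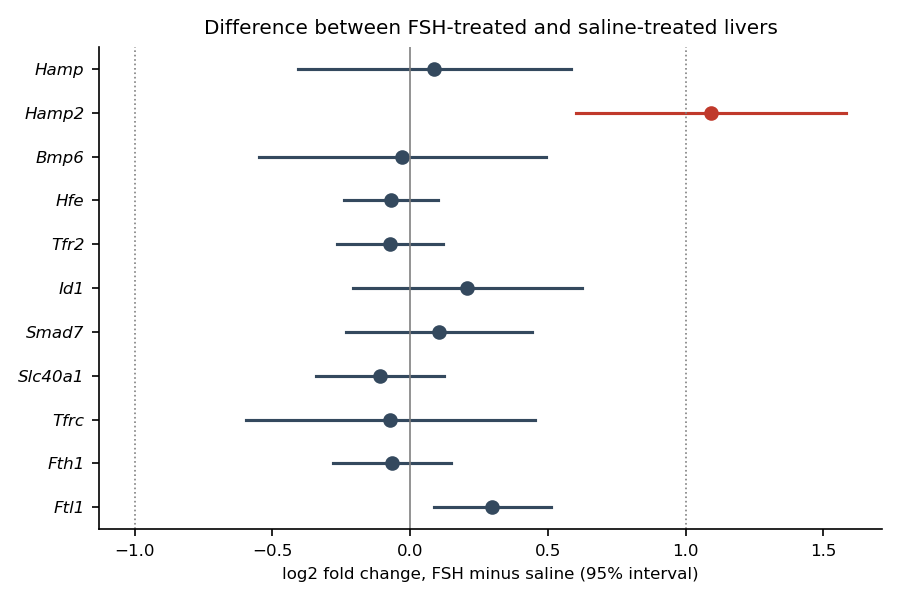
Log2 difference between FSH and saline livers on the log2(CPM + 0.5) scale (horizontal axis) with its 95% interval from limma, for the 10 genes and Hamp2; the dotted lines stand at -1 and 1, and red marks an adjusted p under 0.05. Hamp2, at 1.09, is the only one of the 11 in red.

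*Hamp* (ENSMUSG00000050440, chr7:30942368-30944032, minus strand) varied widely within both groups. FSH livers 1, 2, 3, 4 and 6 had 1362, 1172, 2745, 2696 and 2277 CPM. Saline livers ranged from 1219 to 2602 CPM with a median of 1838 CPM. FSH livers 3 and 4 were above every saline liver, FSH liver 2 was below every one, and the other two lay inside the saline range. Mean *Hamp* was 2050 ± 741 CPM (SD, n = 5) in the FSH group, beside 1866 ± 455 CPM (SD, n = 6) in the saline group. The log2 difference was 0.09 (SE 0.23, 95% interval -0.41 to 0.58, limma adjusted p = 0.864), and it turned negative without FSH liver 3 (-0.04), without FSH liver 4 (-0.03) or without saline liver 6 (-0.03). The within-group SD of *Hamp* on the log2 scale, 0.47, was larger than that of 93.6% of all genes tested, and the interval includes differences of up to 0.58.

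*Hamp2* (ENSMUSG00000056978, chr7:30922372-30924681, minus strand), which lies beside *Hamp*, was higher with FSH. FSH livers 1, 2, 3, 4 and 6 had 1510, 676, 1797, 1642 and 1453 CPM. Saline livers ranged from 436 to 891 CPM with a median of 608 CPM. FSH livers 1, 3, 4 and 6 were above every saline liver, and FSH liver 2 lay within the saline range. The means were 1416 ± 434 CPM (SD, n = 5) and 646 ± 162 CPM (SD, n = 6). For *Hamp2* the log2 difference was 1.09 (SE 0.23, 95% interval 0.60 to 1.58, limma adjusted p = 0.00704), and the adjusted p was between 0.000201 and 0.0244 over 22 alternative settings. The exact permutation test gave p = 0.0130 (two-sided).

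Since both copies were measured in the same library, their ratio does not depend on the scaling between libraries. The ratio of *Hamp* to *Hamp2* was 0.902, 1.73, 1.53, 1.64 and 1.57 in FSH livers 1, 2, 3, 4 and 6. In saline livers 1 to 6 it was 2.92, 3.62, 4.13, 2.94, 2.15 and 2.11. Every FSH liver was thus below every saline liver, and in FSH liver 1 more reads were counted on *Hamp2* than on *Hamp*, without regard to their lengths. The mean ratio was 1.47 ± 0.330 (SD, n = 5) with FSH and 2.98 ± 0.798 (SD, n = 6) with saline, a log2 difference of -1.01 with p = 0.00433 in the two-sided exact permutation test, the smallest p that 5 against 6 livers allow (adjusted over 3 ratios, p = 0.0130). *Hamp2* made up 41.1% ± 6.51 (SD, n = 5) of the reads on both copies with FSH and 26.0% ± 5.15 (SD, n = 6) with saline. The sum of both copies was 3466 ± 1114 CPM with FSH (n = 5) and 2512 ± 559 CPM with saline (n = 6), with a log2 difference of 0.42 and a limma adjusted p of 0.240.

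Both copies are close in sequence. The first annotated transcripts of *Hamp* (410 bases) and *Hamp2* (420 bases) were identical at 94.6% of 410 aligned bases. Of all windows of the *Hamp* transcript, 40.4% of those of 25 bases, 16.6% of those of 50 bases and 0% of those of 100 bases occurred unchanged in that of *Hamp2*. How reads that fit both copies were assigned is not given in the sources used here, so the level of either copy is uncertain to that extent. Both genes also overlap *Gm44662* on the other strand, and the use of strand in counting is not given either. In the sequences above, the copy that was higher with FSH is the one whose core carries G4A, and both copies carry the STAT motif. These matches describe the letters of 1 window and say nothing of what binds there. The windows also differ at other bases, and whether any of these letters bears on the response to FSH was not tested.

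**Figure D3:**
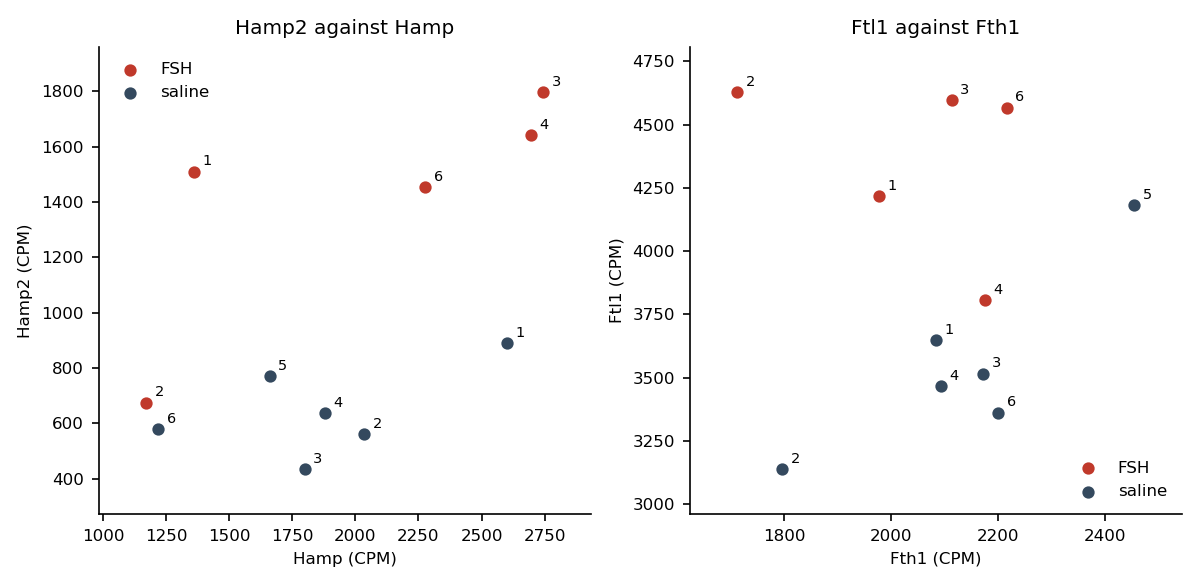
Hamp2 against Hamp (left) and Ftl1 against Fth1 (right) in CPM, with 1 point per liver, labelled by replicate number, for FSH (red) and saline (dark); the axes do not start at 0. At a given Hamp level the FSH livers lie higher in Hamp2, and 4 of the 5 FSH livers lie above every saline liver in Ftl1.

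*Bmp6*, *Hfe* and *Tfr2*, which act upstream of hepcidin, showed no called difference. *Bmp6* (ENSMUSG00000039004, chr13:38345107-38500302, plus strand), which encodes the ligand, was the lowest of the 10 genes. FSH livers 1, 2, 3, 4 and 6 had 1.81, 1.70, 1.47, 3.42 and 1.75 CPM, and saline livers had 0.989 to 3.32 CPM with a median of 1.80 CPM. A median of 26 reads, and as few as 13, lay behind these values. One FSH liver and 2 saline livers were above 3 CPM while the others lay below 2. On the log2 scale *Bmp6* differed by -0.03 (SE 0.24, 95% interval -0.55 to 0.49, limma adjusted p = 0.961). *Bmp6* overlaps *Txndc5* and 4930579J19Rik on the other strand.

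*Hfe* and *Tfr2*, the iron-sensing partners of the BMP receptors, were the steadiest of the 10 genes together with *Fth1* and *Ftl1*. *Hfe* (ENSMUSG00000006611, chr13:23702034-23710854, minus strand) had 40.6, 40.2, 42.0, 40.5 and 41.4 CPM in FSH livers 1, 2, 3, 4 and 6. Saline livers had 39.6 to 48.6 CPM with a median of 41.4 CPM, and all the FSH livers lay inside that range. The log2 difference of *Hfe* was -0.07 (SE 0.08, 95% interval -0.24 to 0.10, limma adjusted p = 0.647). Its within-group SD of 0.10 on the log2 scale was below that of all but 2.40% of the genes tested. *Tfr2* (ENSMUSG00000029716, chr5:137569840-137587481, plus strand) had 423, 412, 426, 435 and 536 CPM with FSH and 422 to 543 CPM with saline (median 457 CPM). FSH liver 6 stood above the other FSH livers but inside the saline range, and FSH liver 2 was just below that range. The log2 difference of *Tfr2* was -0.07 (SE 0.09, 95% interval -0.27 to 0.12, limma adjusted p = 0.672).

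*Id1* and *Smad7* are direct targets of BMP-SMAD signaling, and SMAD7 in turn inhibits the pathway. *Id1* (ENSMUSG00000042745, chr2:152736251-152737410, plus strand) had 31.3, 19.5, 19.8, 17.6 and 14.5 CPM in FSH livers 1, 2, 3, 4 and 6. Saline livers had 12.8 to 27.8 CPM with a median of 15.8 CPM. One liver in each group, FSH liver 1 and saline liver 2, was well above the rest, and the groups overlapped. The log2 difference of *Id1* was 0.21 (SE 0.20, 95% interval -0.21 to 0.62, limma adjusted p = 0.567), and it was 0.0468 without FSH liver 1 and 0.34 without saline liver 2. *Smad7* (ENSMUSG00000025880) had 12.0, 15.9, 16.9, 17.2 and 12.2 CPM with FSH and 11.4 to 21.5 CPM with saline (median 12.5 CPM). Saline liver 2 was again the highest. The log2 difference of *Smad7* was 0.10 (SE 0.16, 95% interval -0.23 to 0.44, limma adjusted p = 0.740), and it was 0.0473 without FSH liver 4 and 0.23 without saline liver 2.

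*Slc40a1* and *Tfrc* encode the exporter and the main importer of iron in most cells. *Slc40a1* (ENSMUSG00000025993, chr1:45908068-45926523, minus strand) had 105, 116, 113, 121 and 109 CPM in FSH livers 1, 2, 3, 4 and 6. Saline livers had 92.7 to 144 CPM with a median of 125 CPM, and they spread more widely than the FSH livers, which all lay within their range. FSH and saline livers differed by -0.11 on the log2 scale (SE 0.11, 95% interval -0.34 to 0.12, limma adjusted p = 0.586). Macrophages also express ferroportin, and the summed Kupffer cell markers had a median of 334 CPM with FSH and 497 CPM with saline (exact permutation test, two-sided, p = 0.0649, adjusted over 6 cell types p = 0.195). Their part in the *Slc40a1* values was not tested.

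*Tfrc* (ENSMUSG00000022797, chr16:32608920-32632794, plus strand), transferrin receptor 1, had 17.4, 11.2, 15.0, 21.6 and 8.33 CPM in FSH livers 1, 2, 3, 4 and 6. Saline livers had 8.70 to 21.7 CPM with a median of 14.8 CPM. Both groups covered nearly the same range. The log2 difference was -0.07 (SE 0.25, 95% interval -0.60 to 0.45, limma adjusted p = 0.897). It was positive without FSH liver 2 (0.00442) or 6 (0.11) and without saline liver 1 (0.04) or 4 (0.02). The ratio of *Tfrc* to *Fth1*, the pair that iron regulatory proteins act on in opposite ways, was 0.00723 ± 0.00237 (SD, n = 5) with FSH and 0.00735 ± 0.00256 (SD, n = 6) with saline. The log2 difference of this ratio was -0.01 (exact permutation test, two-sided, p = 0.983, adjusted over 3 ratios p = 0.983). The ratio compares mRNAs only, whereas the IRE of *Fth1* acts on translation, which was not measured.

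Of the ferritin genes, *Fth1* encodes the heavy subunit, which oxidizes iron, and *Ftl1* the light subunit, which helps form the iron core. *Fth1* (ENSMUSG00000024661, chr19:9980598-9985098, plus strand) had 1977, 1712, 2114, 2175 and 2217 CPM in FSH livers 1, 2, 3, 4 and 6. Saline livers had 1797 to 2456 CPM with a median of 2133 CPM. FSH liver 2 was below every saline liver, and the other FSH livers lay inside the saline range. The log2 difference of *Fth1* was -0.07 (SE 0.10, 95% interval -0.28 to 0.15, limma adjusted p = 0.744).

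*Ftl1* (ENSMUSG00000050708, chr7:45457944-45459884, minus strand) had 4217, 4628, 4598, 3807 and 4567 CPM in FSH livers 1, 2, 3, 4 and 6. Saline livers had 3141 to 4180 CPM with a median of 3492 CPM. FSH livers 1, 2, 3 and 6 were above every saline liver, FSH liver 4 lay inside the saline range, and saline liver 5 stood above the other saline livers. The means were 4363 ± 353 CPM (SD, n = 5) and 3553 ± 352 CPM (SD, n = 6). The log2 difference was 0.30 (SE 0.10, 95% interval 0.09 to 0.51) with an unadjusted p of 0.00908 and an adjusted p of 0.0697 with limma, which did not pass the threshold. It passed without saline liver 5 (log2 difference 0.35, adjusted p = 0.0382) and with voom (0.30, adjusted p = 0.0400), and over 23 alternative settings the adjusted p ran from 0.0382 to 0.272. *Ftl1* overlaps *Gm22133* on the same strand and *Gm10252* on the other.

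Within a library, *Ftl1* stood higher relative to *Fth1* with FSH. The ratio was 2.13, 2.70, 2.17, 1.75 and 2.06 in FSH livers 1, 2, 3, 4 and 6 and between 1.53 and 1.75 in saline livers. FSH liver 4 lay just below saline liver 1, and every other FSH liver was above all saline livers. The mean ratio was 2.16 ± 0.344 (SD, n = 5) with FSH and 1.67 ± 0.0858 (SD, n = 6) with saline. This was a log2 difference of 0.36 (exact permutation test, two-sided, p = 0.00866, adjusted over 3 ratios p = 0.0130). It kept its direction with p between 0.00794 and 0.0190 when each liver was left out in turn. The ratio shows that the mRNAs of the subunits changed unequally and does not say which of them moved.

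**Figure D4:**
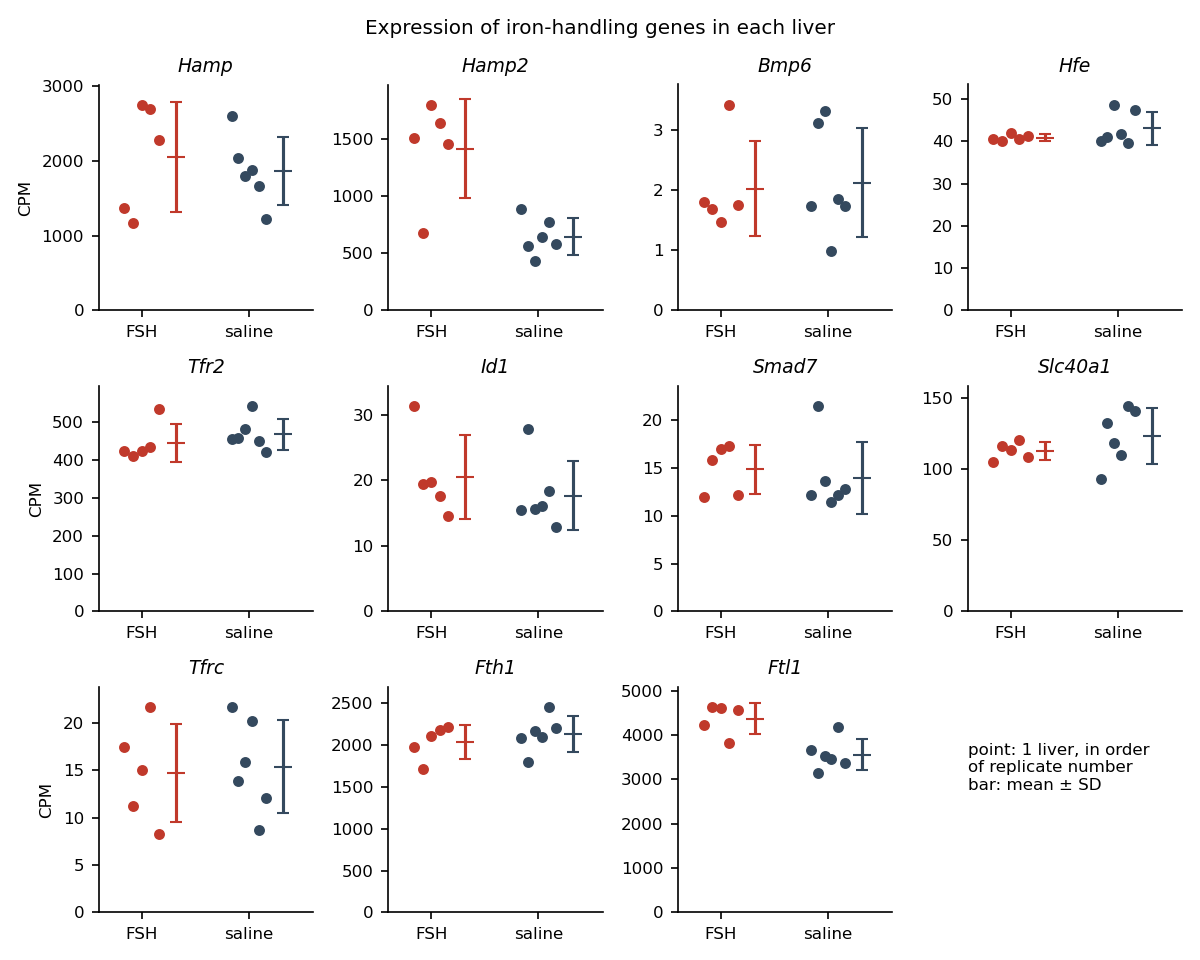
CPM (vertical axes, from 0) of each of the 10 genes and Hamp2 in the 5 FSH (red) and 6 saline (dark) livers, with the mean and SD beside the points. The groups overlap in every panel. In Hamp2 and Ftl1, 4 of the 5 FSH livers lie above all saline livers.

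Whether the genes of the axis moved together from liver to liver was examined in 7 pairs, after the mean of each group was removed. Pearson's r over 11 livers lay between -0.148 (*Id1* and *Hamp*) and 0.384 (*Id1* and *Smad7*), and no pair reached a permutation p under 0.05. For the ligand *Bmp6* and *Hamp*, r was 0.188 (exact permutation test within groups, p = 0.569, adjusted p = 0.664) and Spearman's rho was 0.0727 (p = 0.850, adjusted p = 0.887). For *Id1* and *Smad7*, r was 0.384 (p = 0.244, adjusted p = 0.664) and rho was 0.145 (p = 0.688, adjusted p = 0.887). Without the 2 livers farthest from the median of the first gene, r ranged over the 7 pairs from -0.0290 (*Bmp6* and *Hamp*) to 0.665 (*Tfrc* and *Hamp*, exact permutation p = 0.0840), and it was 0.422 for *Id1* and *Smad7*. Within the 6 saline livers alone, r lay between 0.0714 (*Bmp6* and *Hamp*) and 0.861 (*Fth1* and *Ftl1*), and the smallest unadjusted exact permutation p of the 7 pairs was 0.0625. No correlation was computed within the 5 FSH livers alone.

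The wider iron pathways were followed in 7 lists with 105 genes outside the 10, of which 99 were tested. Of these, 9 were higher and 4 lower with FSH at an adjusted p under 0.05, or 13.1%, beside 10.6% of all genes tested (6.19% higher and 4.41% lower). The calls lay in 4 lists, those of iron-sulfur cluster assembly, iron transport, BMP-SMAD targets and the interleukin-6 input.

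**Figure D5:**
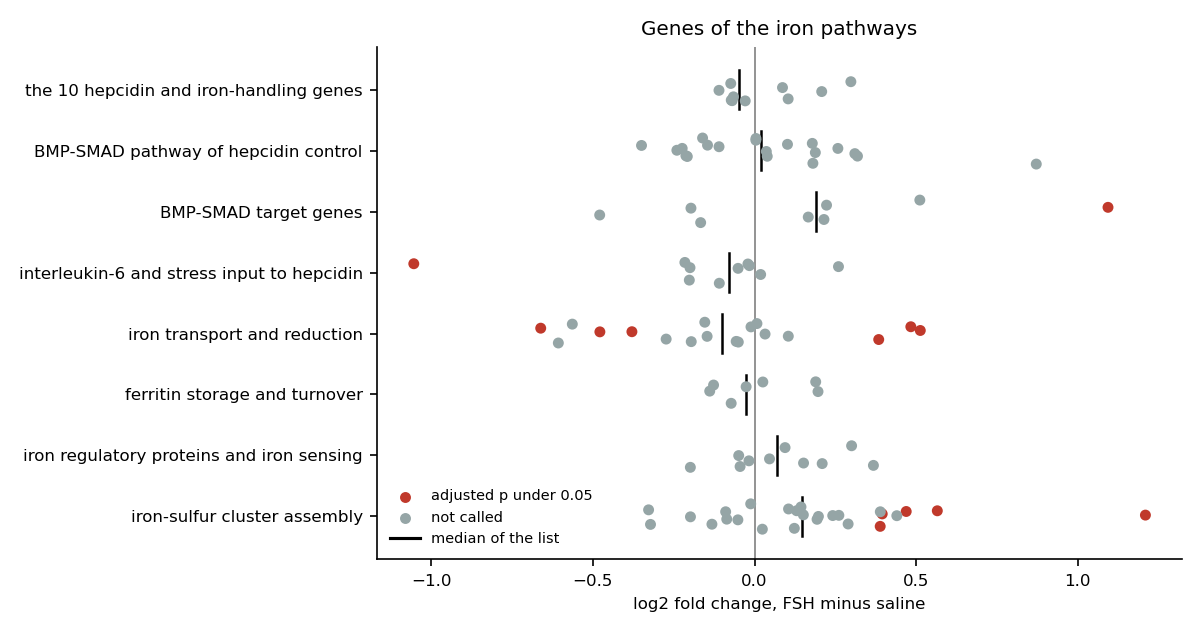
Log2 difference between FSH and saline livers for each tested gene (points) of the 10 genes and of the 7 pathway lists, with red for an adjusted p under 0.05 with limma and a black line for the median of the list. The calls lie in 4 of the pathway lists, and the 5 in iron-sulfur cluster assembly are all higher with FSH.

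Among 20 tested genes of the BMP-SMAD pathway (receptors, SMADs and modulators such as *Tmprss6*), 0 were called with limma, 2 had an unadjusted p under 0.05 (25.1% of all genes), and the median log2 difference was 0.02. The gene with the smallest p was *Fst*, which encodes follistatin, a secreted antagonist of activins and some BMPs. It had 6.33, 7.97, 5.61, 8.98 and 4.29 CPM in FSH livers 1, 2, 3, 4 and 6, and 1.45 to 5.96 CPM in saline livers (median 3.57 CPM). FSH livers 1, 2 and 4 were above every saline liver. *Fst* differed by 0.87 on the log2 scale (SE 0.27, limma adjusted p = 0.0505), and it passed the threshold under 7 of 22 alternatives, among them without FSH liver 6 (adjusted p = 0.0304) or without saline liver 2 (adjusted p = 0.0199). Of 8 tested genes in the list of BMP-SMAD targets, 1 was higher with FSH and 0 were lower, near the 10.6% called over all genes. The call was *Hamp2*, listed there as the duplicate of *Hamp*, and its promoter window above holds no GGCGCC. The median log2 difference over these targets was 0.19, with 5 positive and 3 negative, and 2 of the 8 had an unadjusted p under 0.05, beside 25.1% of all genes.

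In the list of the interleukin-6 and stress input to hepcidin, 1 of 10 tested genes was lower with FSH and 0 were higher, with a median of -0.08. This is near the 10.6% called over all genes, and 2 of the 10 had an unadjusted p under 0.05, beside 25.1% of all genes. The gene was *Il6ra*, the interleukin-6 receptor. FSH livers 1, 2, 3, 4 and 6 had 10.9, 17.7, 6.91, 9.69 and 21.0 CPM, and saline livers had 14.3 to 46.8 CPM with a median of 27.5 CPM. FSH livers 1, 3 and 4 were below every saline liver. *Il6ra* differed by -1.05 on the log2 scale (SE 0.30, limma adjusted p = 0.0350). It did not pass the threshold without FSH liver 1, 3 or 4 or without saline liver 1, 2, 4 or 6, with adjusted p from 0.0531 to 0.0943, nor with no filter on low genes (adjusted p = 0.0706) or without the intensity trend of limma (adjusted p = 0.0525).

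Iron transport and reduction held calls in both directions, 3 higher and 3 lower among 18 tested genes (6.19% and 4.41% of all genes), with a median of -0.10. Of the 18, 8 had an unadjusted p under 0.05, beside 25.1% of all genes. *Slc25a37*, which encodes mitoferrin-1, the importer of iron into mitochondria, had 33.9, 40.9, 33.6, 34.4 and 30.3 CPM in FSH livers 1, 2, 3, 4 and 6 and 21.7 to 27.3 CPM in saline livers. The groups did not overlap, and the log2 difference was 0.51 (SE 0.09, limma adjusted p = 0.00268). *Mcoln1*, which encodes a lysosomal cation channel that passes iron, had 30.2 to 36.0 CPM with FSH and 21.5 to 28.1 CPM with saline (log2 difference 0.38, limma adjusted p = 0.0118). *Hp*, the hemoglobin-binding plasma protein haptoglobin, had 2985, 2370, 2708, 2839 and 3772 CPM in FSH livers 1, 2, 3, 4 and 6 and 3878 to 5322 CPM in saline livers. Every FSH liver was below every saline liver, and the log2 difference was -0.66 (SE 0.13, limma adjusted p = 0.00386). *Slc11a2*, the ferrous iron transporter DMT1, had 13.5 to 16.7 CPM with FSH and 18.4 to 27.3 CPM with saline, again without overlap (log2 difference -0.48, limma adjusted p = 0.00913).

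The other 2 calls of this list, named after their values were seen, were metalloreductases that reduce iron for transport. *Steap3*, the reductase of endosomes, was lower (log2 difference -0.38, limma adjusted p = 0.0270). It did not pass without FSH liver 1, 2, 3 or 4 or without saline liver 3 or 6 (adjusted p from 0.0525 to 0.0728). *Steap2* was higher (log2 difference 0.48, limma adjusted p = 0.0315), and did not pass without FSH liver 2 or 3 or without saline liver 4, 5 or 6 (adjusted p from 0.0531 to 0.0832), nor with no filter on low genes (0.0575).

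Iron-sulfur cluster assembly, which consumes mitochondrial iron, had 5 genes higher and 0 lower among 26 tested (6.19% and 4.41% of all genes), with a median log2 difference of 0.15 beside 0.02 for all genes. An unadjusted p under 0.05 was found for 12 of the 26, beside 25.1% of all genes. *Ciapin1*, an electron carrier of the cytosolic assembly machinery, changed most of them. It had 30.7, 32.8, 37.0, 40.9 and 33.9 CPM in FSH livers 1, 2, 3, 4 and 6 and 12.6 to 18.8 CPM in saline livers (median 14.8 CPM). The groups lay far apart, with a log2 difference of 1.21 (SE 0.11, limma adjusted p = 1.46e-05). *Cisd1*, which encodes mitoNEET, an iron-sulfur protein of the outer mitochondrial membrane, had 230 to 307 CPM with FSH and 175 to 205 CPM with saline (log2 difference 0.57, limma adjusted p = 0.00105). *Isca2*, a late-acting assembly factor, also did not overlap between groups, with 25.8 to 31.9 CPM against 19.8 to 25.6 CPM (log2 difference 0.39, limma adjusted p = 0.0124).

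*Fdx1*, a mitochondrial ferredoxin, had 122 to 158 CPM with FSH and 82.8 to 125 CPM with saline, with FSH liver 6 inside the saline range (log2 difference 0.47, limma adjusted p = 0.0112). *Fdxr*, the reductase that supplies ferredoxin with electrons, was the fifth gene and is named after its values were seen (log2 difference 0.39, limma adjusted p = 0.0330). It did not pass without FSH liver 1, 2 or 4 or without saline liver 2, 3, 5 or 6 (adjusted p from 0.0525 to 0.0948), nor with edgeR (0.0614), median-of-ratios scaling (0.0576) or no filter on low genes (0.0506).

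The lists closest to the cellular iron sensor held no call. Among 10 tested genes of the iron regulatory proteins and of iron and oxygen sensing, 0 were called with limma and 2 had an unadjusted p under 0.05 (25.1% of all genes), with a median of 0.07. The smallest p belonged to *Cul1*, a scaffold of the ubiquitin ligase that degrades iron regulatory protein 2, with 38.8 to 42.4 CPM with FSH and 40.2 to 51.8 CPM with saline (log2 difference -0.20, limma adjusted p = 0.145). The other was *Ireb2*, the gene of iron regulatory protein 2, named after its values were seen. It had 42.2 to 73.2 CPM with FSH and 34.8 to 60.5 CPM with saline (log2 difference 0.37, limma adjusted p = 0.145). Among 7 tested genes of ferritin storage and turnover, 0 were called and 1 had an unadjusted p under 0.05, against the same background, with a median of -0.03. This was *Pcbp2*, an iron chaperone that delivers iron to ferritin, with 227 to 273 CPM with FSH and 191 to 231 CPM with saline (log2 difference 0.20, limma adjusted p = 0.131).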

How the data were processed

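The labels describe total RNA from papain-digested whole liver and NEBNext Ultra libraries. The submitters' processing notes name FastQC 0.11.2, Trim Galore 0.3.3, cutadapt, STAR, RSEM and mm10, without roles. The authors deposited CPM values per Ensembl gene, scaled to 1000000 per library, with no scaling between libraries. All values were whole multiples of 1 read (100% within 0.05 reads), which gave the reads behind them. A limit of 3 reads covers counting error only, whereas the intervals printed come from limma and the spread between livers.

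The 12733 genes that averaged 0.5 CPM or more were tested on log2(CPM + 0.5), which understates changes of low genes, with limma 3.58.1 (eBayes with trend, Benjamini-Hochberg) in R 4.3.3. edgeR 4.0.16 (quasi-likelihood, TMM) and voom were alternatives. Ratios, marker sums and correlations were tested by exact permutation over livers. The replicates are separate mice by their labels. No library pair was alike within sampling noise (lowest mean chi-square per gene within a group, 11.2). Replicate numbers are not stated to pair livers. The functions were tested on simulated data.

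Symbols (35555 identifiers) and positions come from GENCODE M21 on GRCm38, and promoters from RefSeq GRCm38.p6. *Smad7* was not searched for motifs. Exon lengths count all annotated exons of a gene. Of each pathway list, up to 4 called genes with the smallest p were named, or else the gene with the smallest p. The 10 genes were proposed, and the lists written, with earlier results of these data known, although the rule that takes the genes uses only their symbols.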

Additional observations from a re-analysis of the deposited data

Results flagged for a closer look

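Among 58 groups of values examined, 6 held a liver far from the others of its group, where chance gives about 1 in 20. *Tfr2* was 536 CPM in FSH liver 6, while the other FSH livers had 412 to 435 CPM. *Bmp6* was 3.42 CPM in FSH liver 4, against 1.47 to 1.81 CPM in the others. Saline liver 2 stood apart with 27.8 CPM of *Id1* (others 12.8 to 18.4 CPM) and 21.5 CPM of *Smad7* (others 11.4 to 13.6 CPM). Among the other listed BMP-SMAD targets, *Hamp2*, *Id2*, *Id3*, *Id4* and *Smad6* lay below their saline medians in this liver. *Atoh8*, *Bambi* and *Smurf1* lay above theirs. *Pcbp2* was 273 CPM in FSH liver 3, against 227 to 239 CPM in the others. The ratio of *Hamp* to *Hamp2* was 0.902 in FSH liver 1, against 1.53 to 1.73 in the other FSH livers.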

How the results depend on the processing

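The call of *Hamp2* and the ratios of *Ftl1* to *Fth1* and of *Hamp* to *Hamp2* kept their direction and their side of the threshold under every alternative run for them. The number of genes called was 1350 and ranged from 804 (without FSH liver 1) to 1659 when each liver was left out. The number of the 10 genes called was 0, rose to 1 with voom (*Ftl1*, log2 difference 0.30) and ranged from 0 to 1 when each liver was left out, where the log2 difference of *Ftl1* was 0.26 to 0.35. Leaving out each liver gave log2 differences from -0.0402 to 0.27 for *Hamp*, from -0.23 to 0.11 for *Tfrc*, from -0.20 to 0.0937 for *Bmp6* and from -0.20 to 0.21 for the ratio of *Tfrc* to *Fth1*, so that none of these has a settled sign. The log2 differences of *Tfr2* (-0.14 to -0.03), *Hfe* (-0.09 to -0.03), *Slc40a1* (-0.19 to -0.06) and *Fth1* (-0.11 to -0.00380) stayed negative when each liver was left out, and those of *Id1* and *Smad7* stayed positive. With array weights *Tfrc* was 0.0678. Without the 2 livers farthest from the median, r was -0.0290 for *Bmp6* and *Hamp* and 0.0552 for *Id1* and *Hamp*. The cause of these moves was not tested beyond the smaller number of livers.

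Livers with the same number did not deviate together throughout (r from -0.0662 to 0.356 over 5 numbers), and only number 2 correlated best with its own number. With the replicate block 1210 genes were called, none of the 10 among them, and *Hamp2* had a log2 difference of 1.15. Under the block *Steap3* (adjusted p = 0.0602) and *Fdxr* (0.0514) were no longer called and *Fst* was (0.0446). The fewest reads, 13 in one liver, lay behind *Bmp6*.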
